A study of Mus musculus with 9 samples.

Results

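The 10 genes described here mark or control stem cells of the mouse hair follicle. They are Lgr5, Lgr6, Lrig1 and Cd34, which encode surface proteins, Sox9, Lhx2, Nfatc1 and Tbx1, which encode transcription factors, and Gli1 and Gli2, the transcription factors of Hedgehog signalling. They were taken by symbol, and all 10 were found among 49671 gene rows. The study asked how keratinocyte gene expression depends on Flg, the gene of filaggrin, a protein of the outermost epidermis. RNA was sequenced from 4 ko/ko and 5 wt/wt samples of mouse skin cells, sorted as CD45- CD49f+, that is, without the surface protein of leukocytes and with the integrin alpha-6 that anchors basal keratinocytes. No treatment is named, and the sources used here give no strain, age or sex of the mice and no description of the ko allele. Each sample has its own identifier in its title and is taken here as a separate animal, which the labels do not state, so p-values measure the spread between these samples.

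In the resting follicle, slow-cycling stem cells sit in the bulge, below the sebaceous gland, and are commonly marked by CD34, SOX9, LHX2, NFATC1 and TBX1. LGR5 marks the lower bulge and hair germ, whereas LGR6 and LRIG1 mark cells of the isthmus and junctional zone above it. Hedgehog ligands from nerves and from the growing hair act through Patched and Smoothened on the GLI factors, and GLI1 is itself a target of the pathway. Most of these genes are also used elsewhere in skin: CD34 by dermal fibroblasts and blood endothelium, SOX9 by cartilage, NFATC1 and TBX1 by endothelium.

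Per library 15601859 to 23200440 reads were counted, so 1 count equals 0.0431 to 0.0641 CPM, a count scaled to its library's total. Levels are CPM with library sizes adjusted by TMM, a scaling that makes the bulk of genes comparable between libraries. Flg had 0 to 4 counts in ko/ko and 0 to 6 in wt/wt libraries, too few to check the labels. The samples are labelled as epidermal cells, yet 10 fibroblast markers took 3.98% to 6.15% of counts in ko/ko and 2.89% to 5.90% in wt/wt, against 0.177% to 0.338% and 0.185% to 0.389% for 10 basal keratinocyte markers. All markers of both lists were above 0 in every library. The fibroblast markers Gsn and Dcn averaged 23889 and 17100 CPM in ko/ko and 23677 and 15946 CPM in wt/wt. Pdgfra of the same list averaged 101 CPM in ko/ko and 75.5 CPM in wt/wt, below the 1202 and 1146 CPM of the basal marker Krt14. Sums of genes so unlike in level do not compare numbers of cells. A level in such a mixture cannot tell fewer cells of a type from less RNA per cell. The numbers in the library names run in separate blocks by genotype, and the labels do not say what these numbers count. If they follow the order of library handling, that order and the genotype cannot be told apart.

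Several results rest on replicates 1 and 2 of wt/wt, which stood apart in lymphatic markers and were the lowest libraries in fibroblast markers. Their 6 lymphatic endothelial markers summed to 819 and 762 CPM, against 138 to 210 CPM in ko/ko and 269 to 377 CPM in wt/wt replicates 3 to 5. Their fibroblast markers had sums of 33526 and 27507 CPM, below every other library (35856 to 62637 CPM in ko/ko and 57770 to 63894 CPM in wt/wt replicates 3 to 5). Replicate 2 also had 245 CPM of 11 hair matrix and inner root sheath markers, against 18.0 to 38.2 CPM in ko/ko and 22.0 to 47.0 CPM in the remaining wt/wt libraries. The titles of these 2 samples carry consecutive identifiers, as do those of wt/wt replicates 4 and 5, and the labels do not say what the identifiers count. For each of the 10 genes the genotype difference is therefore also given without these 2 libraries, a choice made after the data had been seen. That fit keeps ko/ko replicate 1, which was nearer to these 2 libraries than to the rest of ko/ko. Its chi-square per degree of freedom, larger for less alike libraries, was 58.5 and 75.5 with wt/wt replicates 1 and 2. With ko/ko replicates 2, 3 and 4 it was 118, 81.9 and 95.5 (genes of at least 20 counts in the pair).

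None of the 10 genes (0) had an adjusted p under 0.05 between genotypes in edgeR's quasi-likelihood test, where their p-values, adjusted over 18435 genes, ran from 0.459 to 0.979. That test called 1 gene in all, or 0.00542% of those tested, so a count of 0 among 10 is what the background gives too. An unadjusted p under 0.05 was found for 0 of the 10, against 15.3% of all genes. DESeq2 called 0 of the 10, against 3.63% of all genes, and limma voom with sample quality weights called 0, against 9.77%. Values overlapped between genotypes for every one of the 10, while 6.25% of all genes had no overlap. Of the 10, 6 had a higher and 4 a lower fitted value in ko/ko, with a median log2 fold change of 0.04, against -0.03 over all genes. Without wt/wt replicates 1 and 2, edgeR still called 0 of the 10, against 8.76% of all genes, and 0 had an unadjusted p under 0.05, against 29.5%. In that fit 8 of the 10 had a higher and 2 a lower value in ko/ko, with a median log2 fold change of 0.27, against 0.01 over all genes.

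Per length of exon, the genes spanned more than 2 orders of magnitude, with Sox9 at the top and Lhx2 at the bottom. On the scale of RPKM, which is CPM per kilobase of exon, Sox9 averaged 101 ± 5.82 in ko/ko and 97.0 ± 8.75 in wt/wt (SD, n = 4 and 5). Cd34 followed with 54.7 ± 16.4 RPKM in ko/ko and 40.4 ± 24.7 RPKM in wt/wt, then Nfatc1 with 31.1 ± 2.94 RPKM and 35.3 ± 15.2 RPKM. Lgr6 came next, at 8.90 ± 0.917 RPKM in ko/ko and 10.3 ± 1.24 RPKM in wt/wt, and its range over the 9 libraries overlapped neither Nfatc1 above it nor Lrig1 below it. The other 6 genes lay between 0.211 and 7.18 RPKM in every library, and each overlapped its neighbour in the order Lrig1, Gli2, Tbx1, Gli1, Lgr5 and Lhx2. Sox9 was above Cd34 in 9 of 9 libraries without overlap, while Cd34 was above Nfatc1 in 7 of 9.

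**Figure D1:**
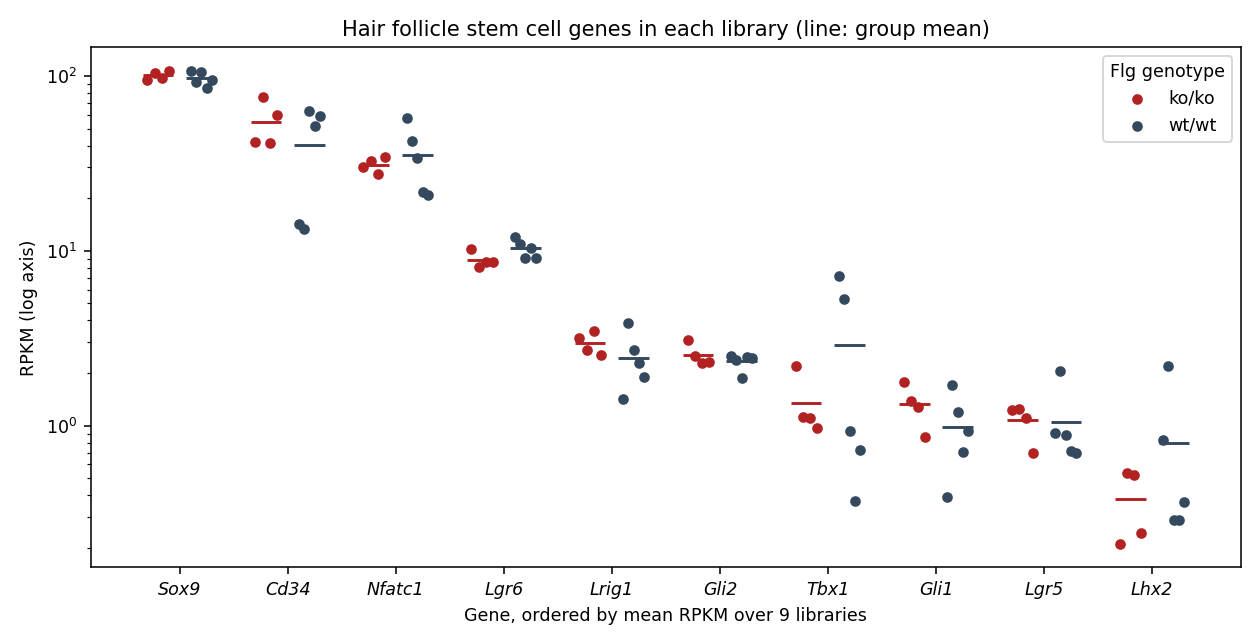
RPKM of each gene in each library on a log axis, with 4 ko/ko libraries in red left of 5 wt/wt libraries in dark blue and a line at each group mean. Sox9 holds within 85.7 to 107 RPKM in all 9 libraries, whereas the wt/wt points of Cd34, Tbx1 and Lhx2 spread widely.

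Of the surface proteins, Cd34 encodes a sialomucin whose antibody is used to sort bulge keratinocytes in the mouse. It shares 148 exon bases with Gm16897 on the opposite strand, which had 288 counts over all libraries, against 62905 for Cd34. Cd34 lies on mm10 chromosome 1 from 194938819 to 194961279, plus strand. The 250 bases before its RefSeq start are shown because Cd34, Tbx1 and Lhx2 varied most between libraries of the 10 genes. Cd34 had 307, 551, 300 and 438 CPM in ko/ko replicates 1 to 4, against 104, 97.3, 462, 375 and 433 CPM in wt/wt replicates 1 to 5. All ko/ko libraries lie above wt/wt replicates 1 and 2, and they lie below, among and above the remaining wt/wt libraries. Group means were 399 ± 119 CPM in ko/ko and 294 ± 180 CPM in wt/wt (SD, n = 4 and 5), and ko/ko over wt/wt was 0.44 on the log2 scale (SE 0.46, edgeR adjusted p = 0.676). The value turned to -0.09 (SE 0.22, adjusted p = 0.817) without wt/wt replicates 1 and 2.
Cd34, chr1:194938571-194938820 (GRCm38.p6, plus strand): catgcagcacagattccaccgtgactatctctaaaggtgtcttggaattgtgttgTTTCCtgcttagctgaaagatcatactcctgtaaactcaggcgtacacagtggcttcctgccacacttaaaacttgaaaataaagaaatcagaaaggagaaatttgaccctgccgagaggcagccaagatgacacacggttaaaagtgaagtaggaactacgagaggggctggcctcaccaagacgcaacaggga
The capitals mark a match to the NFAT core GGAAA, read here on the opposite strand, 195 to 191 bases before the start. That core is in 55.6% of all 32851 RefSeq promoter windows of this length.

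The fibroblast marker Col1a1, a fibrillar collagen chain, had 522, 1545, 1054 and 1633 CPM in ko/ko, against 315, 394, 2359, 1424 and 1801 CPM in wt/wt replicates 1 to 5. The libraries low in Cd34 were thus also the lowest in Col1a1. Of the same list, Col6a1 and Gsn did not share this order. Col6a1 was lowest in ko/ko replicate 1 (562 CPM), below the 1011 and 727 CPM of wt/wt replicates 1 and 2. Gsn had 17413 CPM in both ko/ko replicate 1 and wt/wt replicate 1. The fibroblast sums of ko/ko replicate 1 and wt/wt replicate 1 were 35856 and 33526 CPM, and their Cd34 was 307 and 104 CPM. Blood endothelium is another known source of Cd34, and its 8 markers summed to 352 and 300.2 CPM in wt/wt replicates 1 and 2. They summed to 193 to 312 CPM in ko/ko and 204 to 302 CPM in wt/wt replicates 3 to 5. Single markers of this list differed in wt/wt replicates 1 and 2. Emcn was higher there than in any other library (79.9 and 59.6 CPM), and Esam was lower (11.8 and 18.5 CPM). The part of either cell type in the Cd34 values was not tested.

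Lgr5 and Lgr6 encode receptors for R-spondins, secreted proteins that strengthen Wnt signalling. Lgr5 had 12.6, 12.8, 11.3 and 7.13 CPM in ko/ko, against 9.31, 21.0, 9.08, 7.37 and 7.16 CPM in wt/wt. A single wt/wt library, replicate 2, lies above all ko/ko libraries, and the rest of wt/wt overlaps with ko/ko. The log2 fold change was 0.02 (SE 0.33, edgeR adjusted p = 0.979), and 0.48 (SE 0.24, adjusted p = 0.215) without wt/wt replicates 1 and 2. Leaving out each library in turn gave -0.09 to 0.42, with the sign turned in 6 of 9 cases.

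Lgr6 was steadier and more abundant, at 70.1, 55.6, 59.2 and 59.1 CPM in ko/ko against 82.4, 75.1, 62.7, 71.5 and 62.6 CPM in wt/wt. Of the ko/ko libraries, 3 lie below all wt/wt libraries and replicate 1 lies among them. For Lgr6 the log2 fold change was -0.22 (SE 0.14, edgeR adjusted p = 0.475), -0.15 to -0.29 in the fits without 1 library, and -0.11 (SE 0.13, adjusted p = 0.625) without wt/wt replicates 1 and 2. Lgr6 has 8.11 to 12.0 RPKM over the 9 libraries, above the 0.695 to 2.05 RPKM of Lgr5 in every one.

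Lrig1 encodes a membrane protein that restrains EGF receptor signalling. It had 17.7, 15.1, 19.4 and 14.2 CPM in ko/ko, against 7.93, 21.7, 15.1, 12.7 and 10.6 CPM in wt/wt. The lowest and the highest values are wt/wt replicates 1 and 2, so these 2 libraries, alike in Cd34, differ in Lrig1. Its log2 fold change was 0.29 (SE 0.26, edgeR adjusted p = 0.627), and 0.38 (SE 0.19, adjusted p = 0.221) without both. Lrig1 shares 144 exon bases with Slc25a26, a gene on the opposite strand, and reads there cannot be assigned if strand was not used. Slc25a26 had 1347 counts over all libraries, against 2729 for Lrig1.

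**Figure D2:**
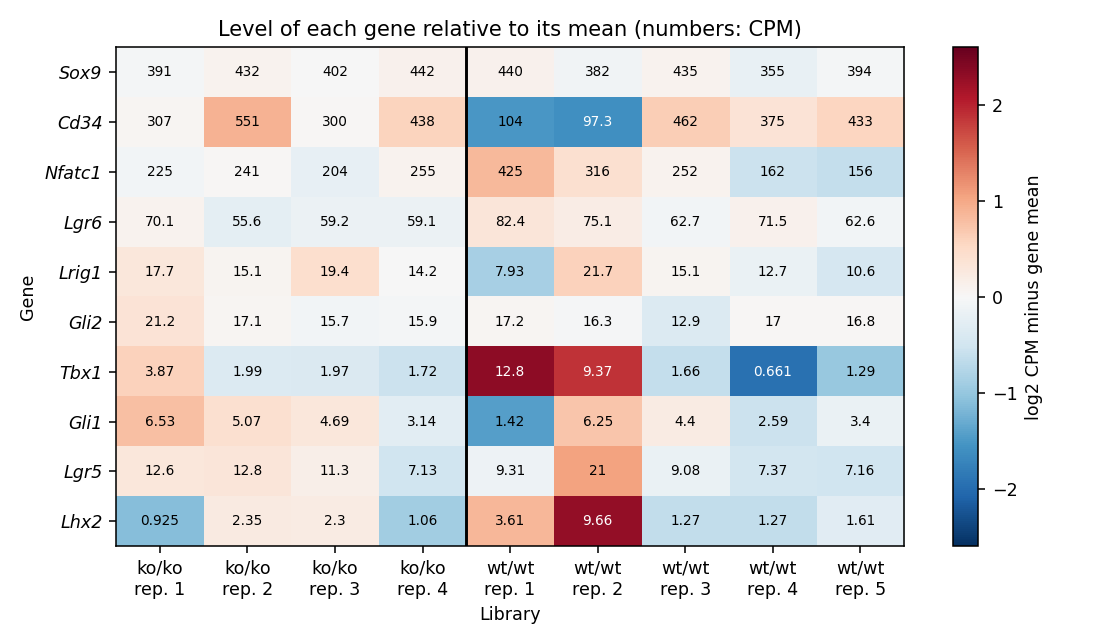
Each cell gives the CPM of a gene in a library, coloured by log2 CPM minus the gene's mean over the 9 libraries, with ko/ko left of the black line and wt/wt right of it. In wt/wt replicates 1 and 2, Cd34 is lowest (104 and 97.3 CPM) and Tbx1 highest (12.8 and 9.37 CPM), while Sox9 stays between 355 and 442 CPM in all libraries.

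Among the transcription factors, Sox9 is needed for bulge stem cells and, in cartilage, for chondrocytes. It had 391, 432, 402 and 442 CPM in ko/ko, against 440.2, 382, 435, 355 and 394 CPM in wt/wt. All 9 libraries lie within a 1.25-fold range, the narrowest of the 10 genes. Between genotypes the log2 fold change was 0.05 (SE 0.13, edgeR adjusted p = 0.869), 0.02 to 0.09 in the fits without 1 library, and 0.08 (SE 0.13, adjusted p = 0.720) without wt/wt replicates 1 and 2. Cartilage and tendon markers were present beside it: Col2a1, the main cartilage collagen, had 339, 468, 396 and 660.2 CPM in ko/ko, against 311, 191, 716, 514 and 572 CPM in wt/wt. The 7 genes of that list summed to 8348 to 12058 CPM in ko/ko and 5529 to 11885 CPM in wt/wt, all 7 above 0 in every library, and their part in the Sox9 values was not tested.

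Nfatc1 encodes a calcineurin-dependent factor known for keeping bulge stem cells quiescent. It had 225, 241, 204 and 255 CPM in ko/ko, against 425, 316, 252, 162 and 156 CPM in wt/wt. The ko/ko libraries sit within 1.25-fold of each other and inside the wt/wt range, which spans 2.73-fold. Nfatc1 had a log2 fold change of -0.18 (SE 0.28, adjusted p = 0.788 in edgeR), but 0.28 (SE 0.19, adjusted p = 0.336) without wt/wt replicates 1 and 2. Its paralog Nfatc2 was likewise highest in wt/wt replicates 1 and 2, at 118, 111, 76.0 and 119 CPM in ko/ko against 255, 163, 92.5, 55.3 and 41.9 CPM in wt/wt.

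Tbx1 encodes a T-box factor of slow-cycling bulge cells that is also expressed in lymphatic endothelium. Its counted row lies on mm10 chromosome 16 from 18581713 to 18586969, minus strand, and the nearer of 2 RefSeq starts lies 1930 bases upstream of that row.
Tbx1, chr16:18588900-18589149 (GRCm38.p6, minus strand): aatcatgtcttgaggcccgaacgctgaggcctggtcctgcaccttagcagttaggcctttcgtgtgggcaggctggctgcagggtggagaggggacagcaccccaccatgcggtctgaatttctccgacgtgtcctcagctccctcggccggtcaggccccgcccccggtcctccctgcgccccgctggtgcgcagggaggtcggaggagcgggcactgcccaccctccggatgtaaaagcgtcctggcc
This window holds no match to the NFAT core, the GLI core or the SOX, LIM-homeodomain and T-box motifs, so it has no capitals. Tbx1 had 3.87, 1.99, 1.97 and 1.72 CPM in ko/ko, against 12.8, 9.37, 1.66, 0.661 and 1.29 CPM in wt/wt. The highest values are wt/wt replicates 1 and 2, and all 4 ko/ko libraries lie above the other 3 wt/wt libraries. The lowest value rests on 13 counts (exact 95% Poisson interval 6.92 to 22.2, counting error only). Nearest to each other across the genotypes, ko/ko replicate 4 and wt/wt replicate 3 both had 34 counts (interval 23.5 to 47.5).

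The log2 fold change of Tbx1 was -1.11 (SE 0.78, edgeR adjusted p = 0.520), and it turned to 0.98 (SE 0.45, adjusted p = 0.181) without wt/wt replicates 1 and 2. The lymphatic markers moved with the high values: Prox1, the lymphatic identity factor, had 8.38, 8.79, 11.9 and 9.25 CPM in ko/ko, against 30.2, 38.6, 13.5, 8.64 and 10.2 CPM in wt/wt. Below those 2 libraries the orders differ, since wt/wt replicate 4 was lowest in Tbx1 with 377 CPM of lymphatic markers, above the 138 to 210 CPM of every ko/ko library. The part of lymphatic cells in the Tbx1 values was not tested.

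Lhx2 encodes a LIM-homeodomain factor of the bulge and hair germ and was the lowest of the 10 genes. Its row spans mm10 chromosome 2 from 38339281 to 38369733, plus strand.
Lhx2, chr2:38339031-38339280 (GRCm38.p6, plus strand): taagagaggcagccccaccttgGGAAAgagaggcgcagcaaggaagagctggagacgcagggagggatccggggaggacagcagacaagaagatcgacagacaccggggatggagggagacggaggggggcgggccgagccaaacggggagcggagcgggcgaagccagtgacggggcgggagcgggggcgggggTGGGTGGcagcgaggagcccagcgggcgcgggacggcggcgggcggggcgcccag
The capitals mark an NFAT core, GGAAA, 228 to 224 bases before the start, and a GLI core, CCACCCA, read on the opposite strand 55 to 49 bases before it. This is the first of 2 RefSeq starts. The window of the other, at 38351308 inside the row, holds an NFAT core 138 to 134 bases before that start and no GLI core. The GLI core is in 8.11% of all windows. Lhx2 had 0.925, 2.35, 2.30 and 1.06 CPM in ko/ko, against 3.61, 9.66, 1.27, 1.27 and 1.61 CPM in wt/wt. The highest values are again wt/wt replicates 2 and 1, and the other 3 wt/wt libraries lie within the ko/ko range.

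On the log2 scale, Lhx2 in ko/ko over wt/wt was -1.06 (SE 0.65, edgeR adjusted p = 0.459), and it turned to 0.27 (SE 0.44, adjusted p = 0.714) without wt/wt replicates 1 and 2. Inner root sheath keratins peaked in the same library: Krt25 had 0.231, 0.362, 3.00 and 0.455 CPM in ko/ko, against 6.46, 39.0, 1.37, 1.42 and 0.964 CPM in wt/wt. Lgr5 also had its maximum there, while Krt28, Krt71, Krt73 and Krt31 of the hair matrix list were at 0 in at least 1 library. Of that list, Tchh was highest in ko/ko replicate 1 (16.5 CPM) and Krt31 in wt/wt replicate 3 (1.56 CPM). The basal keratinocyte markers also had their highest sum in wt/wt replicate 2, at 3701 CPM. That sum was 1802 to 3075 CPM in ko/ko and 2008 to 2294 CPM in the rest of wt/wt. The part of growing hair, or of basal keratinocytes, in the Lhx2 and Lgr5 values was not tested.

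**Figure D3:**
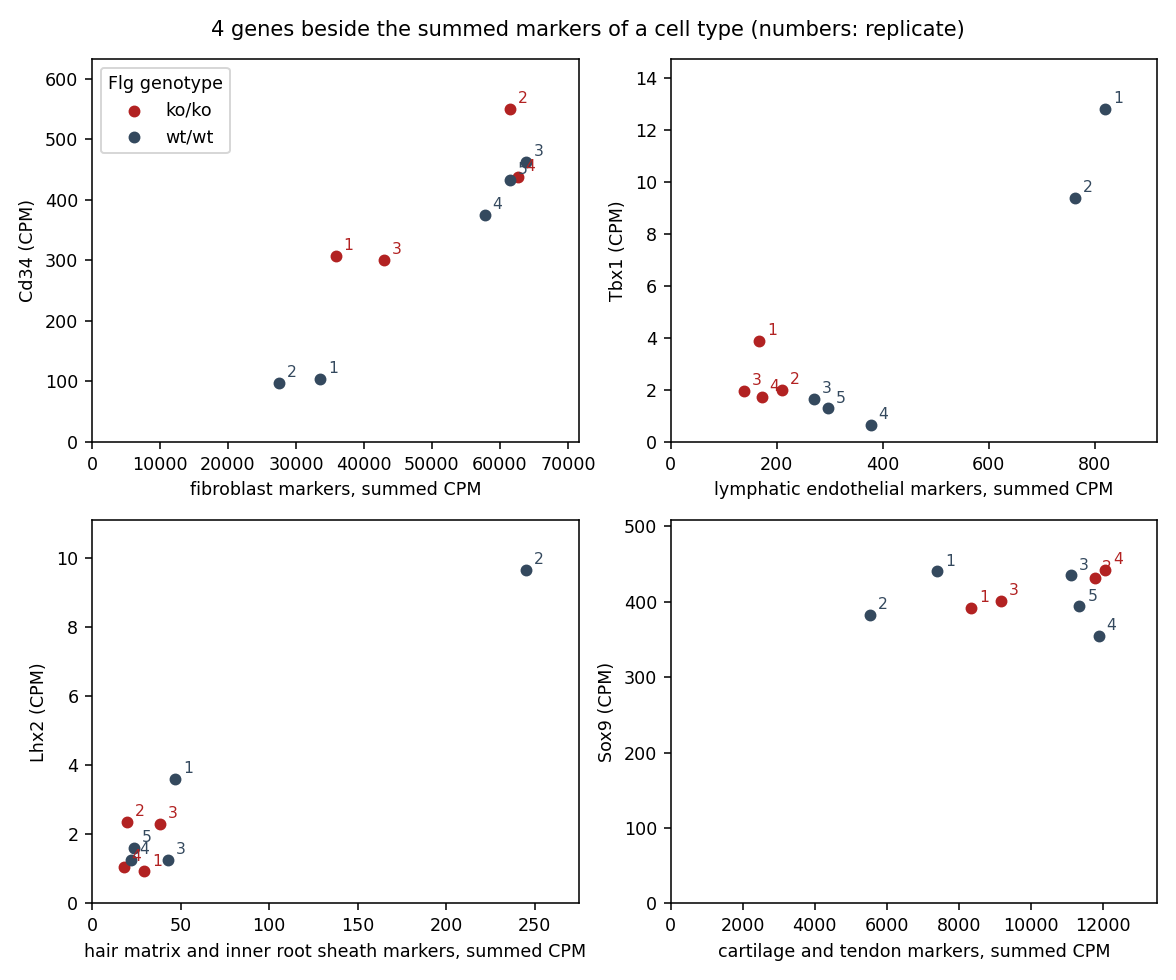
CPM of Cd34, Tbx1, Lhx2 and Sox9 (y axes) against the summed CPM of fibroblast, lymphatic endothelial, hair matrix with inner root sheath, and cartilage with tendon markers (x axes), with 4 ko/ko libraries in red and 5 wt/wt in dark blue, numbered by replicate. The wt/wt libraries 1 and 2 sit apart in the Cd34 and Tbx1 panels and library 2 alone in the Lhx2 panel (245 CPM of hair markers), while Sox9 stays at 355 to 442 CPM along its whole axis.

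The windows were searched on both strands for a core motif of each factor family among the 10 genes. Besides GGAAA and CCACCCA these were ACAATG for SOX factors, TAATTA for LIM-homeodomain factors and GGTGTGA for T-box factors, found in 10.7%, 4.84% and 3.33% of all windows. Of the 10 genes, 6 were read, with 8 windows. Nfatc1 was left out of the search, and no entries were found for Lgr5, Sox9 and Gli1. The NFAT core was in 4 of the 8 windows, the GLI core in 1 (Lhx2), the SOX core in 1 (Lgr6), and the LIM-homeodomain and T-box motifs in 0. Matches are letters in a window and say nothing of binding.

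Gli1 and Gli2 carry the Hedgehog signal into the nucleus, Gli2 as the main activator and Gli1 as an amplifier that the pathway switches on. Gli1 had 6.53, 5.07, 4.69 and 3.14 CPM in ko/ko, against 1.42, 6.25, 4.40, 2.59 and 3.40 CPM in wt/wt. The wt/wt range covers all ko/ko libraries except replicate 1. Gli1 had a log2 fold change of 0.43 (SE 0.40, adjusted p = 0.638 in edgeR), with 0.23 to 0.72 in the fits without 1 library and 0.49 (SE 0.32, adjusted p = 0.335) without wt/wt replicates 1 and 2. Gli1 shares 55 exon bases with Arhgap9 on the opposite strand, which had 136 counts over all libraries, against 760 for Gli1.

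Gli2 had 21.2, 17.1, 15.7 and 15.9 CPM in ko/ko, against 17.2, 16.3, 12.9, 17.0 and 16.8 CPM in wt/wt. The highest library is ko/ko replicate 1 and the lowest wt/wt replicate 3, and the others lie between 15.7 and 17.2 CPM. The log2 fold change was 0.12 (SE 0.16, edgeR adjusted p = 0.750), and 0.17 (SE 0.18, adjusted p = 0.568) without wt/wt replicates 1 and 2.

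**Figure D4:**
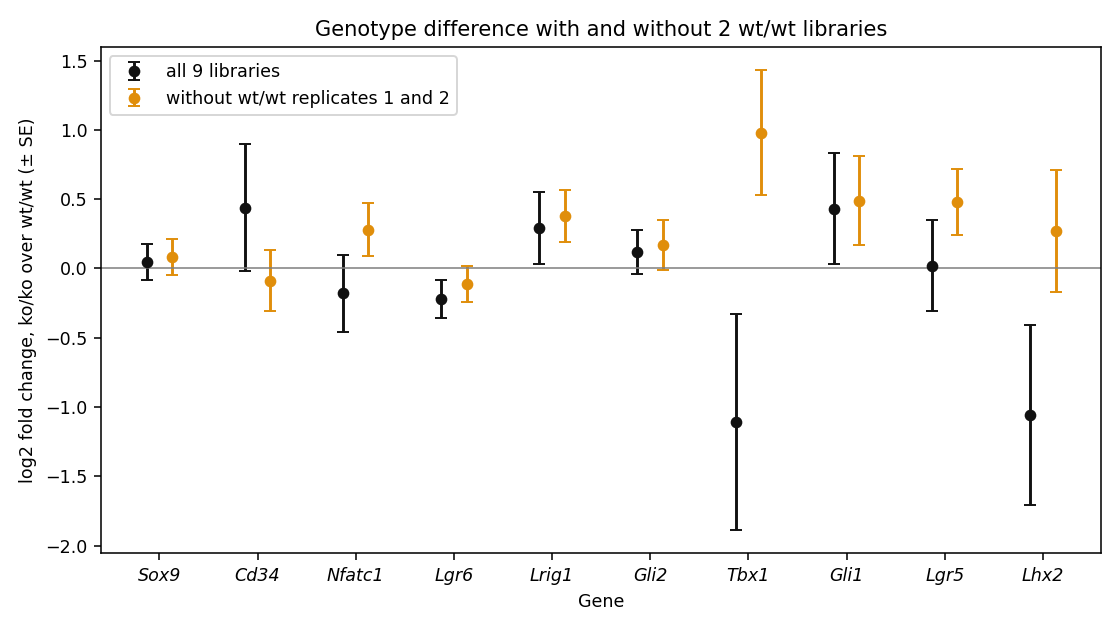
Log2 fold change of ko/ko over wt/wt with its SE for each gene, in edgeR with all 9 libraries (black) and without wt/wt replicates 1 and 2 (orange). Tbx1 (-1.11 and 0.98), Lhx2 (-1.06 and 0.27), Nfatc1 (-0.18 and 0.28) and Cd34 (0.44 and -0.09) change sign, while Sox9 and Gli2 move by 0.05 or less.

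The genes around the 10 gave the same count in edgeR with all libraries: of 75 tested genes in 5 lists, 0 passed. An unadjusted p under 0.05 was found for 13 as higher in ko/ko and for 2 as lower, which is 20% of the 75, against 15.3% of all genes (1633 higher and 1183 lower of 18435). No overlap between genotypes was found for 8, or 10.7%, against 6.25% of all genes. DESeq2 called 6 of the 73 to which it gave an adjusted p, or 8.22%, against 3.63% of all genes, and voom called 13, or 17.3%, against 9.77%. Without wt/wt replicates 1 and 2 edgeR called 13 of these genes, 9 higher and 4 lower, again 17.3%, against the 8.76% of all genes it then called (1108 higher and 527 lower). The lists were chosen with earlier results of these data known, so these shares are no test of the lists.

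Of 18 tested Hedgehog genes, 8 had a higher and 10 a lower value in ko/ko (median log2 fold change -0.11), and 0 passed edgeR's test. Cdon, a co-receptor of Hedgehog ligands, had 85.1, 89.1, 89.4 and 92.2 CPM in ko/ko, against 53.8, 41.2, 68.2, 66.5 and 50.9 CPM in wt/wt. The genotypes did not overlap for Cdon, whose log2 fold change was 0.67 (SE 0.16, adjusted p = 0.140 in edgeR and 0.0110 in DESeq2). Gas1, another co-receptor, had 74.4, 83.0, 74.3 and 73.6 CPM in ko/ko, against 15.4, 22.1, 54.5, 49.8 and 49.4 CPM in wt/wt. It did not overlap either, and its log2 fold change was 1.00 (SE 0.33, edgeR adjusted p = 0.210) with all libraries but 0.57 (adjusted p = 0.0286) without wt/wt replicates 1 and 2, the low ones.

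The third co-receptor, Boc, had the opposite sign, at 418 ± 115 CPM in ko/ko against 574 ± 127 CPM in wt/wt (SD, n = 4 and 5; edgeR adjusted p = 0.382), and its log2 fold change was -0.46, or -0.67 (adjusted p = 0.0825) without wt/wt replicates 1 and 2. Gpr161, a negative regulator of the pathway in cilia, had a log2 fold change of 0.81 (SE 0.34, adjusted p = 0.296), and Disp1, which releases the ligand, -0.37 (SE 0.18, adjusted p = 0.362). Ptch1, the Hedgehog receptor and a target of the pathway, averaged 22.4 ± 6.08 CPM in ko/ko and 17.5 ± 3.09 CPM in wt/wt (adjusted p = 0.435). The ligand gene Shh was too low to be tested, with 0 to 0.815 CPM in ko/ko and 0 to 3.12 CPM in wt/wt, its highest value in wt/wt replicate 2. Gli3 (0.48, SE 0.26), a GLI factor that mainly represses, Smo (0.06, SE 0.17), Sufu (-0.17, SE 0.18) and Hhip (-0.19, SE 0.60) had log2 fold changes with adjusted p from 0.406 to 0.903. In the fit without wt/wt replicates 1 and 2, which called 8.76% of all genes, Cdon and Gas1 passed as higher and Evc2, a ciliary protein, as lower.

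Of 22 other bulge and upper follicle genes, 16 had a higher and 6 a lower value in ko/ko (median log2 fold change 0.30), and 0 passed edgeR's test. Krt15, a keratin of the bulge and basal layer, had 632, 362, 442 and 334 CPM in ko/ko, against 264, 572, 204, 231 and 256 CPM in wt/wt. All ko/ko libraries lie above 4 of the 5 wt/wt libraries, and wt/wt replicate 2 lies among them. Its log2 fold change was 0.54 (SE 0.31, edgeR adjusted p = 0.434), and 0.94 (adjusted p = 0.0362) without wt/wt replicates 1 and 2. Nfib, a nuclear factor that maintains follicle stem cells, averaged 392 ± 55.0 CPM in ko/ko and 249 ± 24.1 CPM in wt/wt (SD, n = 4 and 5) without overlap (adjusted p = 0.130 in edgeR and 0.00144 in DESeq2).

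Foxc1, a quiescence factor of the bulge, had the smallest p of this list, at a log2 fold change of 0.95 (SE 0.17, adjusted p = 0.0951 in edgeR and 0.000132 in DESeq2). Itga6, the gene of the antigen used for the sort, had 0.64 (SE 0.17, adjusted p = 0.157 in edgeR and 0.0267 in DESeq2), and Fgf18, a growth factor of the resting follicle, 0.54 (SE 0.20, adjusted p = 0.245). Krt19, another bulge keratin, was low, at 1.41 ± 0.876 CPM in ko/ko and 1.36 ± 0.866 CPM in wt/wt, and Tcf7l1, a repressor of Wnt targets, had a log2 fold change of 0.20 (SE 0.15). Dkk3, a secreted protein of the Dickkopf family, was the single gene of the list with an unadjusted p under 0.05 as lower, and was chosen after its values were seen. It averaged 1365 ± 419 CPM in ko/ko and 2150.0 ± 389 CPM in wt/wt (SD, n = 4 and 5) without overlap, and its log2 fold change was -0.66 (SE 0.24, adjusted p = 0.245 in edgeR, 0.103 in DESeq2 and 0.0371 in voom). In the fit without the 2 wt/wt libraries, which called 8.76% of all genes, 4 genes of the list passed as higher (Krt15, Nfib, Foxc1 and Itga6), and Dkk3 had -0.80 (adjusted p = 0.0782).

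Of 19 genes of R-spondin, Lgr and Wnt feedback, 12 had a higher and 7 a lower value in ko/ko (median log2 fold change 0.12), and 0 passed edgeR's test. Lrp6, a Wnt co-receptor, averaged 79.4 ± 20.6 CPM in ko/ko and 43.0 ± 5.40 CPM in wt/wt (SD, n = 4 and 5), and the log2 value of ko/ko over wt/wt was 0.89 (SE 0.19, adjusted p = 0.129 in edgeR and 0.00331 in DESeq2). Tcf7l2, a Wnt effector, had 0.60 (SE 0.21), Nkd1, a feedback inhibitor, -0.53 (SE 0.18), and Lef1, -0.32 (SE 0.15), with adjusted p of 0.216 to 0.350. Lgr4, the third receptor of the family, had 0.27 (SE 0.31) and Axin2, a common Wnt target, 0.38 (SE 0.25). The ligands Rspo1, Rspo2, Rspo3 and Rspo4 averaged 5.46, 0.926, 7.22 and 3.87 CPM in ko/ko, against 4.99, 1.09, 6.29 and 6.14 CPM in wt/wt (adjusted p 0.592 to 0.932). Without the 2 wt/wt libraries, Lrp6 and Tcf7l2 passed as higher, and Nkd1 and Rspo4 (-1.15, adjusted p = 0.0266) as lower, in a fit that called 8.76% of all genes.

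Of 10 calcineurin and NFAT genes, 5 had a higher and 5 a lower value in ko/ko (median log2 fold change 0.01), and 0 passed edgeR's test. Nfatc3 averaged 19.7 ± 2.26 CPM in ko/ko and 12.2 ± 2.35 CPM in wt/wt (SD, n = 4 and 5) without overlap, and its log2 fold change was 0.70 (SE 0.19, adjusted p = 0.159 in edgeR and 0.0269 in DESeq2). Nfatc4 had 0.44 (SE 0.20), and the calcineurin catalytic subunits Ppp3ca and Ppp3cb had 0.37 (SE 0.14) and 0.45 (SE 0.18), with adjusted p of 0.254 to 0.340. Without the 2 wt/wt libraries Nfatc3 passed as higher and Rcan2, a calcineurin inhibitor, as lower (-1.44, adjusted p = 0.0221), where 8.76% of all genes passed. Of 6 Lrig and Erbb receptors 0 passed in either fit, with Lrig3 at 0.36 (SE 0.16, adjusted p = 0.324), Lrig2 at 0.10 (SE 0.18), Egfr at 0.33 (SE 0.26), Erbb2 at -0.27 (SE 0.18) and Erbb3 at 0.43 (SE 0.39).

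**Figure D5:**
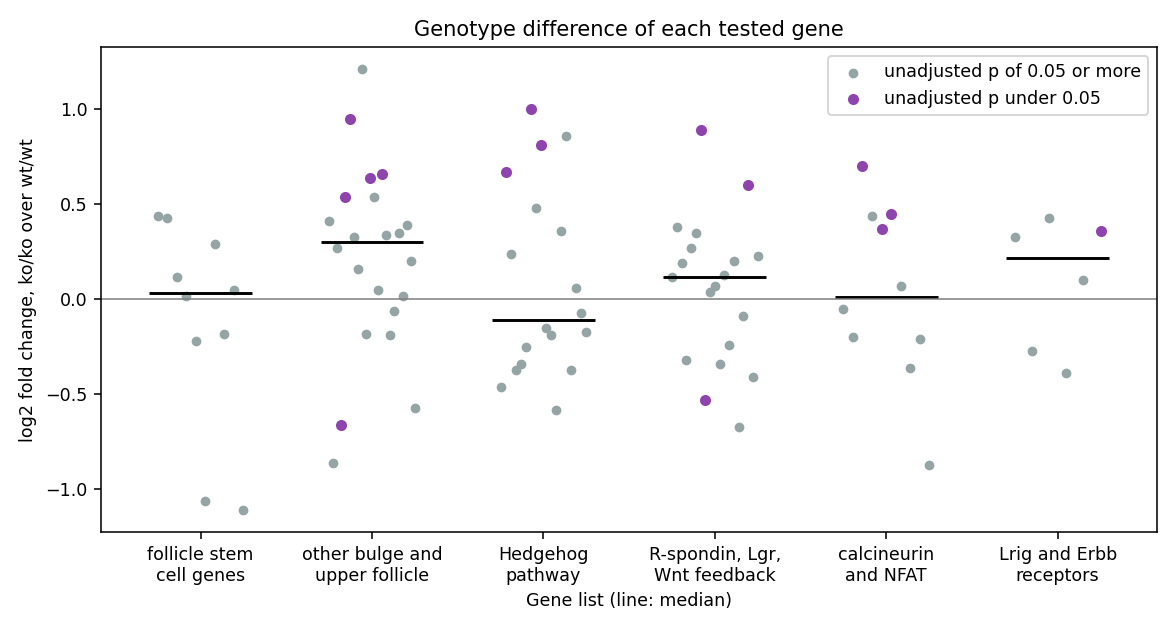
Log2 fold change of ko/ko over wt/wt for each tested gene of the 10 follicle stem cell genes and of 5 related lists, from edgeR with all 9 libraries; purple points have an unadjusted p under 0.05 and lines are medians. The 10 genes hold 0 purple points and a median of 0.04, and the 5 lists hold 13 purple points above 0 and 2 below, or 20% of their 75 genes, against 15.3% of all genes. The lists were chosen with earlier results of these data known, so this share is no test of them.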

How the data were processed

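The authors deposited unnormalized whole-number counts of reads for each gene and sample. GSNAP, featureCounts 1.6.2 and mm10 were used, per the submitters' processing notes, and the table's name gives Ensembl release 87. Per the labels' protocols, cDNA of polyadenylated RNA went through 13 amplification cycles (SMART method) and tagmentation. Amplified reads are not independent molecules, so intervals cover counting error only. How strand, multi-mapped reads and duplicates were treated is not stated there. The exon length is another deposited column. After 92 spike-in rows were left out, 49671 rows remained, of which 49326 matched a symbol in GENCODE M21. Positions are those of the deposited table; promoter windows come from a table of RefSeq sequences (GRCm38.p6), in which windows of 6 of the 10 genes were read. Every pair of libraries differed by more than independent counts would, with a chi-square per degree of freedom of 23.9 or more (genes of at least 20 counts in the pair). Since amplified reads are not independent, that value cannot tell amplification from differences between samples.

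Genotypes were compared in edgeR 4.0.16 under R 4.3.3 (filterByExpr, TMM, glmQLFit with robust=TRUE, two-sided quasi-likelihood F test, Benjamini-Hochberg over 18435 genes, threshold 0.05), and the script was tested on simulated data. A positive log2 fold change means higher in ko/ko, and its SE is its size divided by the root of F. RPKM is CPM per kilobase of exon. Groups are those of the labelled genotype; replicates are numbered in accession order. Alternatives used other scaling and filters, DESeq2 1.42.0, limma 3.58.1 voom with quality weights, and left-out libraries. The genes and lists were chosen with earlier results of these data known. Named are the 10 genes, up to 4 genes of smallest p per list, fixed partners of the 10, and fixed markers; Col1a1, Col2a1, Prox1, Krt25, Evc2, Rcan2 and Dkk3 were chosen after their values were seen. No sequence is shown for Nfatc1. The values of 1 fixed partner are not reported here.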

Additional observations from a re-analysis of the deposited data

Results flagged for a closer look

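In 134 groups of 4 or 5 libraries tested, 15 had a library far from the others of its genotype by Dixon's test for an outlying value. About 1 in 20 would do so by chance (6.7 expected) if values were normal and groups independent. The genes and marker sums come from the same libraries and are not independent, so 15 against 6.7 is no test. Among wt/wt libraries, replicate 2 had 21.0 CPM of Lgr5, while the rest of wt/wt had 7.16 to 9.31 CPM. It also had 9.66 CPM of Lhx2 (rest of wt/wt 1.27 to 3.61), 572 CPM of Krt15 (204 to 264) and 4.32 CPM of Hhip, a Hedgehog antagonist (1.01 to 1.37). Its basal keratinocyte markers summed to 3701 against 2008 to 2294 CPM, and its hair matrix and inner root sheath markers to 245 against 22.0 to 47.0 CPM.

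Among ko/ko libraries, replicate 1 had 3.87 CPM of Tbx1, while the rest of ko/ko had 1.72 to 1.99 CPM. The same library had 12.7 CPM of Sufu (rest of ko/ko 14.1 to 14.3), 4.28 CPM of Rspo1 (5.80 to 5.95) and 9.31 CPM of Fgf18 (13.0 to 13.3). Gas1 reached 83.0 CPM in ko/ko replicate 2, with 73.6 to 74.4 CPM in the rest of ko/ko, and Disp1 reached 43.8 CPM in ko/ko replicate 4, with 34.5 to 36.0 CPM in the rest. In wt/wt replicate 3, Gli2 had 12.9 CPM (rest of wt/wt 16.3 to 17.2) and Foxc1 24.9 CPM (16.4 to 18.3). Nfatc3 had 8.13 CPM in wt/wt replicate 5 and 12.2 to 13.7 CPM in the rest of wt/wt.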

How the results depend on the processing

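Over 18 other settings, 0 of 178 values for the 10 genes passed an adjusted p of 0.05 (0.181 to 0.995), and 15 had another sign than with all libraries and TMM. Without wt/wt replicates 1 and 2 the log2 fold change was 0.27 for Lhx2, 0.28 for Nfatc1, -0.09 for Cd34 and 0.98 for Tbx1. With weighted voom it was 0.04 for Lhx2, 0.17 for Nfatc1 and 0.42 for Tbx1, and Lgr5 had -0.01 with no filter. Leaving out 1 library at a time gave -0.09 to 0.42 for Lgr5 and -0.32 to 0.07 for Nfatc1. The other 8 genes kept their sign in those fits, where Lhx2 ran from -1.29 to -0.22 (weakest without wt/wt replicate 2) and Tbx1 from -1.44 to -0.44 (weakest without wt/wt replicate 1). Lhx2 and Tbx1 could not be fitted under the stricter filter.

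The number of genes called by edgeR with all libraries, 1, was 4 by library totals alone, 28 with no filter, 630 with DESeq2, 1802 with weighted voom, 0 to 12 without 1 library, and 1635 (1108 higher, 527 lower) without wt/wt replicates 1 and 2. Of the 75 genes of the related lists, 0 became 6 with DESeq2, 13 with weighted voom and 13 without those 2 libraries. The cause was not tested. With no filter the median of all genes was 0.14, against -0.03. CPM by library total moved no group mean by as much as its SD. Of the 10 genes, Lhx2 and Tbx1 had the fewest counts, 16 and 13 in their lowest libraries. No paired analysis was possible because the labels give no replicate numbers shared between the genotypes.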
